A study of Drosophila melanogaster with 4 samples.

Results

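The distal megabase of a chromosome arm is the 1 Mb that ends at its telomere. The members described here are the rows of 4 deposited peak lists whose centre lay within 1 Mb of the tip of 2L, 2R, 3L or 3R, the large autosomal arms of Drosophila melanogaster. The tip was taken as the first base of the left arms and as the largest listed end on the right arms, at 21145131 on 2R and 27894485 on 3R. The 4 stretches made up 4.14% of the length of these arms. Of the L(3)mbt regions that the authors listed on these arms, they held 190 of 3658 at a false discovery rate of 3% (the 3% list) and 143 of 2655 at 0.5% (the 0.5% list). They also held 708 of 14809 peaks of an unfiltered ChIP list and 1981 of 41934 peaks of an input list. The remaining 3468, 2512, 14101 and 39953 rows on the 4 arms are called the rest. Over all chromosomes and scaffolds, the unfiltered lists had 18529 and 46603 rows.

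The lists came from chromatin immunoprecipitation and sequencing (ChIP-seq) in brains of larvae of the third instar, pooled with imaginal discs, those of the third leg, haltere and wing, at 25 °C. The ChIP group had 2 samples, w1118 (a white-eyed stock) and Canton S (a wild-type stock), precipitated with a guinea pig antibody against a part of L(3)mbt. The input group had 2 samples, again w1118 and Canton S, of genomic DNA taken without an antibody. No list has a value per strain, so strains cannot be compared, and the depth behind the lists is unknown. The tissue is a mixture, and peak lists hold no marker of any cell type, so the labelled tissue could not be checked against them.

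L(3)mbt is a chromatin protein with malignant brain tumour (MBT) repeats, which bind methylated lysines of histone tails in related proteins. Its loss causes overgrowth of the larval optic lobe. It has been linked to insulator elements, the DNA at which insulator proteins separate neighbouring regulatory domains. Fly telomeres are not made by telomerase. They consist of arrays of telomeric retrotransposons, followed on the centromere side by subtelomeric repeats that can silence genes placed in them. The distal megabase lies mostly inward of these repeats and is largely unique, gene-bearing sequence. No sequence or gene annotation of the release used for the lists was used here, so regions are given by position, without genes, promoters or motifs, and no sequence is shown.

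L(3)mbt regions were spread over the distal megabases of all 4 arms. The 3% list had 53 regions on 2L, 47 on 2R, 52 on 3L and 38 on 3R. The 0.5% list had 39, 41, 37 and 26. Thus 143 of the 190 regions, 75.3%, also passed the stricter rate. The share over the 4 arms as a whole was 72.6%. By arm it was 73.6% on 2L (exact 95% interval 59.7 to 84.7%) and 87.2% on 2R (74.3 to 95.2%). On 3L it was 71.2% (56.9 to 82.9%) and on 3R 68.4% (51.3 to 82.5%). These intervals treat regions as independent, and the share was not tested by arm. The odds ratio between the distal megabase and the rest was 1.16 (95% interval 0.86 to 1.57) and did not pass the test (binomial fit over all 3% regions of the 4 arms with arm as a covariate, errors clustered by 100 kb step, adjusted p = 0.50). It was 0.94 (0.72 to 1.22) without 2R. Among the 190, regions of the 0.5% list scored 7.5675 or more and the others at most 7.4975. Listing at 0.5% thus follows from the authors' score, and this share is not evidence separate from it. All adjusted p-values are Benjamini-Hochberg values over 17 tests, with a threshold of 0.05.

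**Figure D1:**
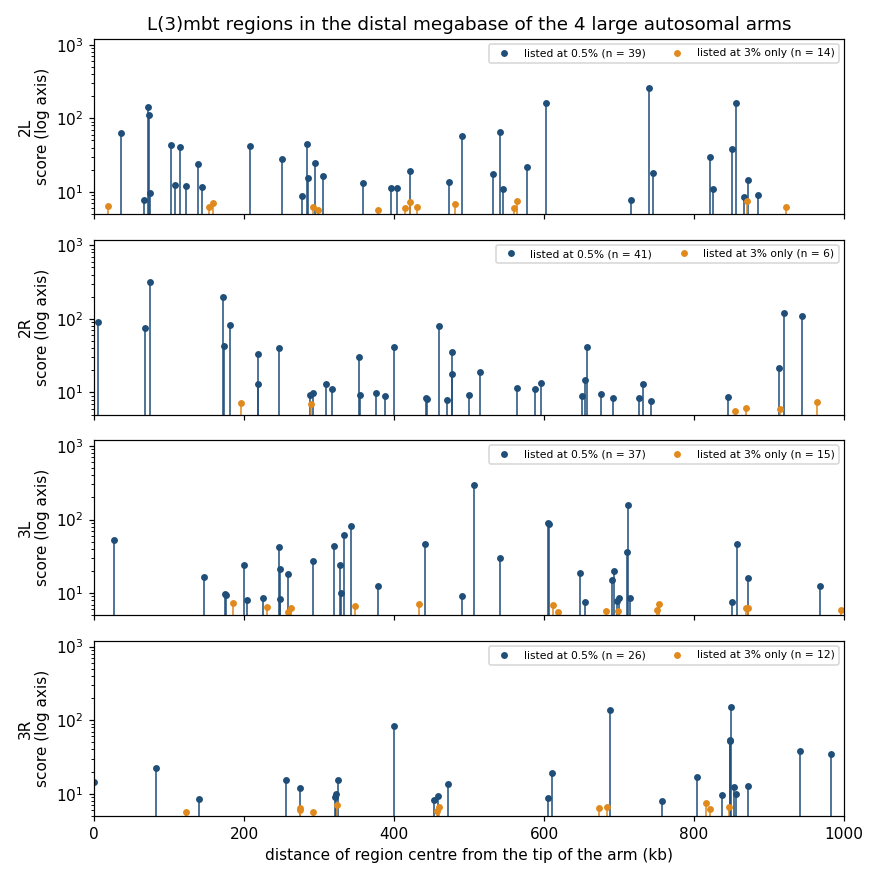
Each point is a 400 bp region of the 3% list, placed by its distance from the tip in kb and by the authors' score on a log axis, in 1 panel per arm. Blue regions were also listed at 0.5%, orange ones at 3% only. Regions of high score lie among low ones. With the arms pooled, the highest score is 44.2 from 200 to 300 kb and at least 81.2 in every other 100 kb step. On 3R no region of the outermost 300 kb scores above 22.3.

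The authors' score is 1 value per region, and its scaling to input is not stated, so it is compared within the list. The 190 regions had scores from 5.58 to 318.2 with a median of 11.5, and those of the rest had a median of 11.2. By arm the distal median was 12.4 on 2L, 11.6 on 2R, 9.97 on 3L and 9.68 on 3R, against 11.5, 10.7, 11.2 and 11.7 in the rest. The distal median was thus higher on both arms of chromosome 2 and lower on both arms of chromosome 3. Over the 4 arms, the difference in log2 score was 0.10 (95% interval -0.11 to 0.31) and did not pass the test (linear fit over all 3658 regions with arm as a covariate and clustered errors, n = 3658, adjusted p = 0.50). A score of at least 20 was reached by 59 of the 190 (31.1%, background over the 4 arms 29.6%). For a score of at least 50 the count was 28 (14.7%, background 13.8%), and for at least 100 it was 13 (6.84%, background 5.88%). These shares lie near their backgrounds.

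The 3 highest-scoring regions of each distal megabase were all in the 0.5% list, which follows from their scores. The strongest of all scored 318.2 and lay on 2R, 74.5 kb from the tip (21070394 to 21070793). It ranked 7 among the 3658 regions of the 4 arms, and the unfiltered ChIP peak over it had a height of 547.9. The next on 2R scored 199.0, from 20972921 to 20973320, and 119.4, from 20225035 to 20225434. The strongest of 3L (505988 to 506387) scored 299.2 and ranked 11, with a ChIP height of 709.9, the highest of the 708. It stood well above the other strong regions of 3L, which scored 156.9 (712010 to 712409) and 89.0 (604709 to 605108).

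The strongest of 2L (740036 to 740435) scored 255.0 and ranked 22. The other strong regions of 2L had nearly equal scores, 160.5 from 602313 to 602712 and 160.0 from 855233 to 855632. The strongest regions of distal 3R were weaker than those of the other arms. They scored 149.9 (27045241 to 27045640), 138.3 (27206856 to 27207255) and 84.5 (27494716 to 27495115) and ranked 92, 112 and 283. The input peak nearest to any of these 12 was centred 961 bp away and was 5.52 high. Of the 100 highest-scoring regions of the 4 arms, 8 were distal (8%, exact 95% interval 3.52 to 15.2%), an interval that includes the share of length.

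The region nearest the tip lay 0.2 kb from it on 3R, where it sets the tip itself (27894086 to 27894485), and scored 14.2. On 2R it lay 4.37 kb from the tip (21140559 to 21140958) and scored 90.5. On 3L it lay at 26.2 kb (25973 to 26372) and scored 53.2. On 2L a weak region, listed at 3% alone with a score of 6.5, lay at 18.9 kb, and the nearest one at 0.5% lay at 35.7 kb and scored 63.2. The outermost input peaks were at 10.3 kb on 2L, 1.64 kb on 2R, 24.7 kb on 3L and 2.49 kb on 3R. The outermost unfiltered ChIP peaks were at 6.73, 0.135, 26.2 and 0.206 kb. On the right arms the tip is itself set by the outermost row, so these distances cannot be compared between left and right arms.

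The 12 L(3)mbt regions of the terminal 100 kb had the highest median score of the 10 steps. This step was singled out after its values were seen, so no test is given. Over the 4 arms its density was 30.0 per Mb (exact Poisson 95% interval 15.5 to 52.4), an interval that includes the 37.5 per Mb of the rest. Of the 12 regions, 11 were listed at 0.5% (background over the 4 arms 72.6%), which restates their scores. On 2L there were 6, with scores of 6.5, 63.2, 7.71, 141.0, 109.5 and 9.60 from the tip inward. On 2R there were 3, scoring 90.5, 75.4 and 318.2. On 3L there was 1, scoring 53.2, and on 3R there were 2, scoring 14.2 and 22.3. The median of the 12 was 58.2, whereas it was 11.2 both for the 178 regions from 100 to 1000 kb and for the rest. A score of at least 50 was reached by 7 of 12 (58.3%), and these 7 came from 3 of the arms. From 100 to 1000 kb it was reached by 21 of 178 (11.8%), and in the rest by 475 of 3468 (13.7%). No interval is given for the 12, since their scores singled out the step and neighbours among them are not independent. The scores of 141.0 and 109.5 on 2L belong to neighbouring regions, from 72141 to 72540 and from 73088 to 73487.

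The density of L(3)mbt regions in the distal megabase was above that of the rest, by an amount that did not pass the test after adjustment. At 3% there were 47.5 regions per Mb (exact Poisson 95% interval 41.0 to 54.8) against 37.5 (36.2 to 38.7). At 0.5% there were 35.8 per Mb (30.1 to 42.1) against 27.1 (26.1 to 28.2). Such intervals cover counting error alone and treat regions as independent. Counts per 100 kb step varied 2.16 times as much as Poisson counts at 3% and 1.65 times at 0.5%. With that extra spread, a quasi-Poisson fit with arm as a covariate (n = 967 steps) gave a density ratio of 1.27 (95% interval 1.02 to 1.57, adjusted p = 0.16) at 3% and of 1.32 (1.06 to 1.64, adjusted p = 0.098) at 0.5%. The steps take the place of replicates in this test, and neighbouring steps need not be independent. With the 1 Mb at the centromere-side end left out of the rest, the ratio at 3% was 1.23 (0.998 to 1.52) and did not pass.

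The values by arm ranged from above the rest to level with it. On 2L the distal density at 3% was 53.0 per Mb against 34.4 in the rest, and on 3L it was 52.0 against 35.3. On 2R it was 47.0 against 41.3, and on 3R it was 38.0 against 39.0. A test of whether the ratio differed between arms did not pass (F = 0.96, n = 967 steps, adjusted p = 0.50). Without 3R the ratio at 0.5% was 1.46 (1.15 to 1.87) and passed (n = 688 steps, adjusted p = 0.020). Without 2L, 2R or 3L it was 1.24, 1.29 and 1.27 and did not pass. At 3% the ratio was 1.18 (0.93 to 1.51) without 2L and 1.20 (0.93 to 1.55) without 3L. It was 1.31 (1.02 to 1.69) without 2R and 1.37 (1.07 to 1.75) without 3R. None of these ratios at 3% passed. Ranked among the whole megabases of their own arm at 3%, the tips of 2L and 3L were number 2 of 22 and of 24. The tip of 2R was number 10 of 21 and that of 3R number 13 of 27. At 0.5% the tips of 2L, 2R, 3L and 3R, in that order, were number 1 of 22, 4 of 21, 3 of 24 and 15 of 27.

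**Figure D2:**
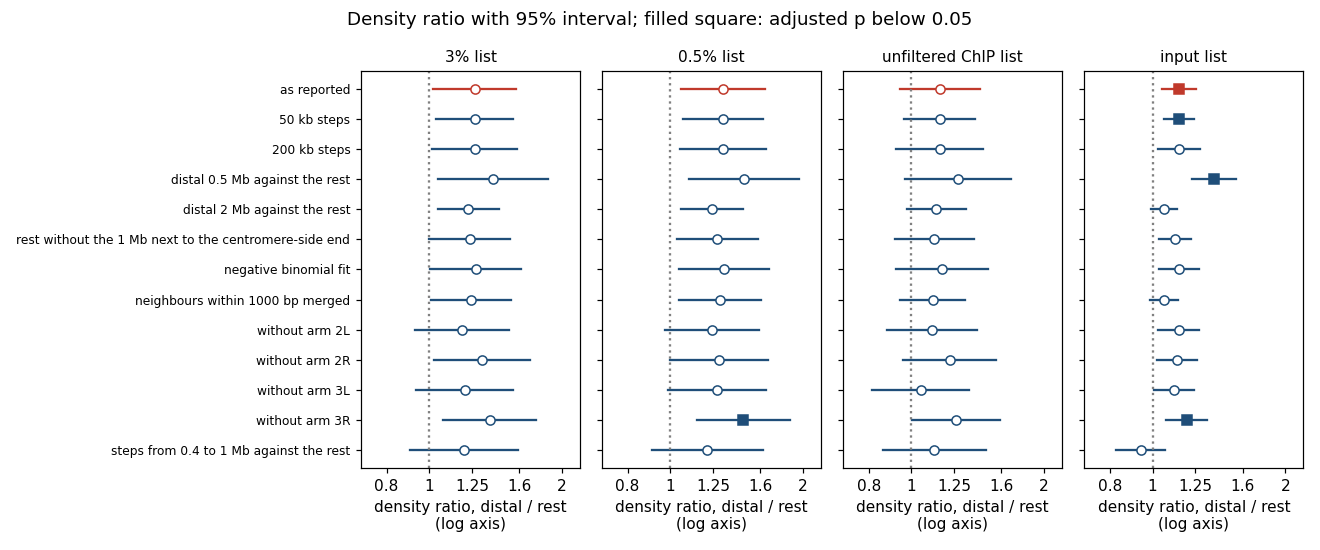
Density ratio of the distal megabase to the rest on a log axis, with its 95% interval, for the 4 lists (columns) under the reported setting (red) and each alternative (blue). Filled squares have an adjusted p below 0.05. The input list reaches this as reported (1.15) and the ChIP lists do not. Among the alternatives of the ChIP lists, only the 0.5% list without 3R reaches it (1.46).

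In 100 kb steps from the tip, the pooled counts at 3% were 12, 19, 29, 22, 23, 13, 23, 12, 27 and 10. They showed no steady course, with the lowest values in the terminal step and at 500 to 600, 700 to 800 and 900 to 1000 kb. The fitted change per 100 kb away from the tip was 0.98 times (95% interval 0.92 to 1.05, quasi-Poisson fit, n = 40 steps, adjusted p = 0.66). At 0.5% it was 0.97 times (0.90 to 1.04, n = 40 steps, adjusted p = 0.50). Both changed sides of 1 without the last step, at 1.02 and 1.01 times. Further inward, megabases 2 to 6 held 175, 179, 148, 165 and 119 regions at 3%, against 190 in the distal one. The density of the distal megabase was therefore close to that of the following 2, which had 43.8 and 44.8 per Mb.

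**Figure D3:**
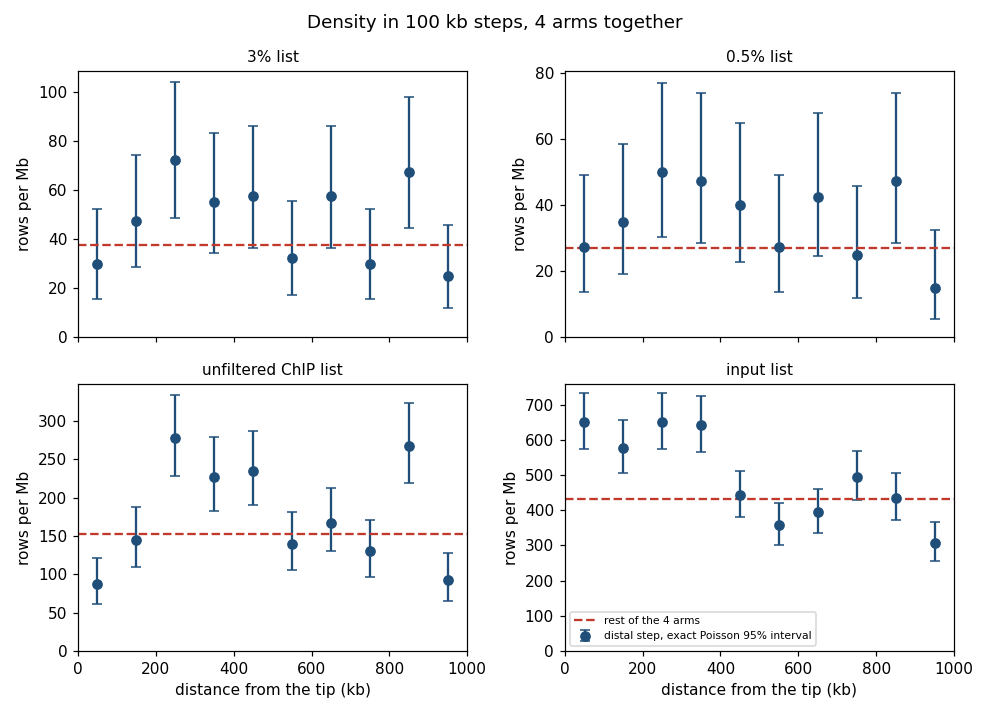
Rows per Mb in 100 kb steps from the tip, 4 arms together, with exact Poisson 95% intervals, for each list. The intervals cover counting error alone and are too narrow for counts that vary more than Poisson counts. The dashed line is the density in the rest of the arms. Input peaks stand at 577.5 to 650.0 per Mb in the 4 outermost steps and at 307.5 to 495.0 in the following 6. At 3%, L(3)mbt regions range from 25.0 to 72.5 per Mb, with the terminal step at 30.0.

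Steps differed widely within a megabase. Of the 40 distal steps, 1 held no 3% region (2.50%), and the share over all full steps of the 4 arms was 11.8%. That step lay on 3R, 500 to 600 kb from the tip, from 27294486 to 27394485. It also held 0 unfiltered ChIP peaks, while 37 input peaks were listed in it. The fullest step lay on 3L, 600 to 700 kb from the tip, with 12 regions, a count reached by 13 of 923 full steps in the rest (1.41%). Its scores ran from 5.59 to 89.0 with a median of 8.27, so it held many weak regions beside a strong pair. On 3R the step at 800 to 900 kb held 11 regions, among them the strongest region of that megabase. That count was reached by 18 steps of the rest (1.95%). Both steps were picked as the fullest of their megabase, so these shares are descriptions. On 2L 4 steps held 8 regions each, and on 2R the fullest step, at 400 to 500 kb, held 7. With scores from 8 to 81.2, all 7 were in the 0.5% list (background 72.6%).

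The longest gaps between neighbouring 3% regions were of like size on the 4 arms. They measured 112.8 kb on 2L (602713 to 715467), 103.2 kb on 2R (20299517 to 20402679), 119.8 kb on 3L (26373 to 146182) and 132.9 kb on 3R (27289148 to 27421998). Unfiltered ChIP peaks in them numbered 5, 3, 3 and 10, and input peaks 50, 45, 77 and 49. The gaps were thus not empty of listed signal. The gap on 3L began right behind its outermost region, so that arm had a single 3% region within 146 kb of its tip.

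Neighbouring regions were often close. The median distance to the next region was 10.1 kb in the distal megabases (186 pairs, quartiles 3.90 and 27.4 kb) and 12 kb in the rest (quartiles 4.02 and 30.7 kb). Another 3% region was centred within 1 kb of 39 of the 190 (20.5%, background 19.1%) and within 2 kb of 52 (27.4%, background 29.0%). Within 5 kb it was 94 (49.5%, background 48.6%), and within 10 kb it was 140 (73.7%, background 69.5%). These shares were close to their backgrounds over the 4 arms. Within 2 kb, a neighbour was listed for 7 of 53 regions on 2L (13.2%, rest of the arm 30.1%), 14 of 47 on 2R (29.8%, rest 30.0%), 17 of 52 on 3L (32.7%, rest 30.4%) and 14 of 38 on 3R (36.8%, rest 26.8%). Differences between arms in this share were not tested. Chains in which each centre lay within 2 kb of the next numbered 21, of which 13 were pairs, 6 had 3 members and 2 had 4. Both chains of 4 lay on 3R. The one from 27045241 to 27048010 scored 149.9, 52.3, 54.3 and 6.70 in order of position, and the one from 27568929 to 27573535 scored 15.4, 7.03, 9.81 and 8.95.

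The limit of 1 Mb fell between regions of unequal strength. Just inside it lay scores of 6.21 on 2L, 7.39 on 2R, 5.88 on 3L and 34.8 on 3R. Just outside lay 136.6, 7.86, 5.83 and 122.9, at 1007, 1015, 1035 and 1007 kb. Strong regions thus follow soon after the limit on 2L and 3R.

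The unfiltered ChIP list, which holds weak calls as well as those behind the filtered regions, had 184 peaks on distal 2L, 171 on 2R, 215 on 3L and 138 on 3R. Per Mb the rest had 140.1, 170.5, 141.2 and 158.6. The densities on 2L and 3L were thus above the rest, that on 2R was nearly equal to it and that on 3R was below. The ratio over the arms was 1.16 (95% interval 0.94 to 1.43, quasi-Poisson fit, n = 967 steps, adjusted p = 0.37). The distal peaks had a median height of 7.22 against 7.11, and the log2 difference of 0.11 (-0.01 to 0.22) did not pass the test (linear fit with clustered errors, n = 14809 peaks, adjusted p = 0.23). Heights of 20 or more were given for 130 of 708 (18.4%, background 15.8%). A 3% region was overlapped by 225 of 708 (31.8%, background 29.0%), with an odds ratio of 1.15 (0.98 to 1.34) that did not pass the binomial fit (adjusted p = 0.23). In turn, 1 of the 190 regions had no unfiltered ChIP peak over it, the one scoring 7.03 in the chain on 3R (0.53%). In the rest it was 10 of 3468 (0.29%).

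In steps from the tip, the unfiltered ChIP counts were 35, 58, 111, 91, 94, 56, 67, 52, 107 and 37. The terminal step, at 87.5 per Mb (exact Poisson 95% interval 60.9 to 121.7), and the last one, at 92.5, were the sparsest, and both were below the 152.4 per Mb of the rest. Counts of this list per 100 kb step varied 7.59 times as much as Poisson counts (967 steps). The interval is therefore too narrow, and the difference of these steps from the rest was not tested. The step counts followed those of the 3% list over the 40 steps (Pearson r = 0.85, Spearman rho = 0.87), much as over 923 steps of the rest (0.83 and 0.85). This is a description, since both lists come from the same libraries and filtered regions are among the calls. The fitted change per 100 kb was 1.00 times (0.93 to 1.07, n = 40 steps, adjusted p = 0.91).

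Input peaks, listed from DNA without antibody, were denser in the distal megabase than in the rest, and this difference passed the test. They numbered 496 on 2L, 513 on 2R, 518 on 3L and 454 on 3R, against 428.4, 433.1, 417.1 and 446.0 per Mb in the rest. The distal count was above the rest on all 4 arms, by least on 3R. The ratio was 1.15 (95% interval 1.05 to 1.26, quasi-Poisson fit, n = 967 steps, adjusted p = 0.031). The call rested on several choices, since it was lost without 2L, 2R or 3L (ratios 1.15, 1.14 and 1.12) and was kept without 3R (1.19). The adjusted p-values without 2L, 2R or 3L were 0.12, 0.16 and 0.32. It was also lost with a negative binomial fit (1.15, adjusted p = 0.072). The size of the ratio changed as well. It fell to 1.06 with neighbours within 1000 bp merged (95% interval 0.98 to 1.14) and to 1.06 with a distal part of 2 Mb (0.99 to 1.14), both without the call. With a distal part of 0.5 Mb it rose to 1.38 (1.23 to 1.54) and kept the call. Whether the list was called on input alone or against ChIP is not stated, so its peaks need not be plain background.

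The excess of input peaks lay in the outermost 400 kb. The step counts were 260, 231, 260 and 257 there and 177, 143, 158, 198, 174 and 123 in the following steps. Density was 630.0 per Mb (exact Poisson 95% interval 591.7 to 670.1) up to 400 kb and 405.4 per Mb (380.3 to 431.7) from 400 to 1000 kb. Input counts varied 4.07 times as much as Poisson counts over 967 steps and 2.16 times over the 40 distal steps. Both intervals are therefore too narrow. The drop was seen on each arm. Per Mb, 2L had 630.0 and then 406.7, 2R had 707.5 and 383.3, 3L had 620.0 and 450.0, and 3R had 562.5 and 381.7. The fitted change per 100 kb away from the tip was 0.93 times (95% interval 0.91 to 0.95), and it passed the test (quasi-Poisson fit with arm as a covariate, n = 40 steps, adjusted p = 1.1e-05). It stayed between 0.92 and 0.94 times and passed in each of 8 alternatives, those without an arm among them. The limit of 400 kb was set after the data were seen. With the first 400 kb left out, the distal ratio fell to 0.94 (0.83 to 1.07).

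Among the whole megabases of its arm, the distal one ranked 3 of 22 on 2L, 2 of 21 on 2R, 3 of 24 on 3L and 9 of 27 on 3R in input peaks, so it was the fullest on no arm. Each arm was also divided into 400 kb stretches from its tip, a length chosen because the outermost 4 steps were high, and the ranks by this length are a description. On 2L it held 252 input peaks and on 2R 283, the highest count of 57 and of 52 stretches. On 3L it held 248 and was number 2 of 61, and on 3R it held 225 and was number 7 of 69, with 2 others at the same count. The median of the other stretches was 176, and their highest count was 249. The 3% regions of the same outermost stretches, 26 on 2L, 19 on 2R, 23 on 3L and 14 on 3R, ranked 3, 18, 3 and 37. Other stretches of the same arm with the same count numbered 0, 1, 4 and 3, in that order.

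**Figure D4:**
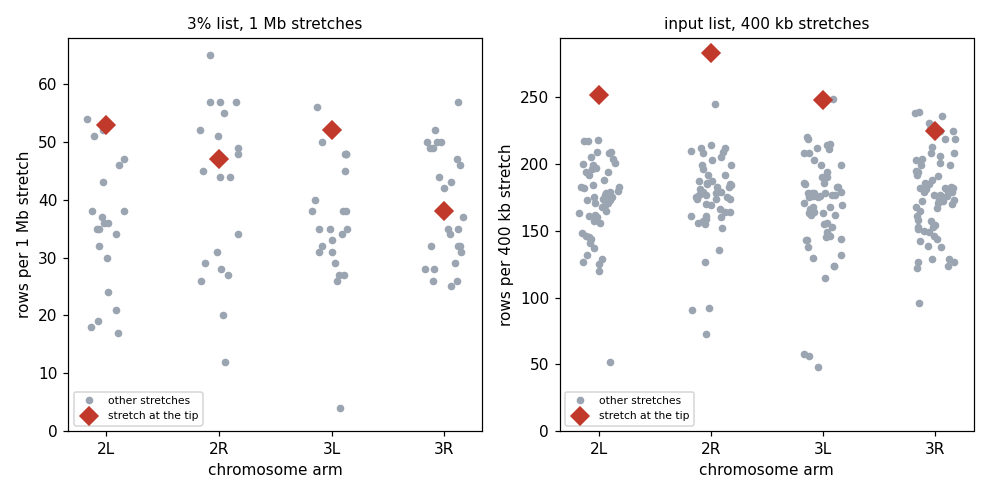
Rows per stretch for every whole stretch of each arm, counted from the tip, with the outermost one in red and the others in grey, spread sideways at random. Left, 3% regions in 1 Mb stretches, where the tips hold 53, 47, 52 and 38. Right, input peaks in 400 kb stretches, where the tips of 2L and 2R, at 252 and 283, lie above all others of their arm.

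The input peaks at the tips were no higher than elsewhere by the test. The median height was 5.64 in the distal megabase and in the rest, and the log2 difference was 0.011 (95% interval -0.0031 to 0.024, linear fit with clustered errors, n = 41934 peaks, adjusted p = 0.31). In the outermost 400 kb the median was 5.66 and the highest peak 12.2. Heights of 8 or more were given for 109 of 1981 distal peaks (5.50%, exact 95% interval 4.54 to 6.60%), with a background of 4.07%. The interval treats peaks as independent, which neighbouring peaks need not be. The share was higher than in the rest on each of the 4 arms, from 4.63% against 4.30% on 3R to 6.37% against 3.74% on 3L. That difference was not tested.

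The terminal step had the lowest density of unfiltered ChIP peaks among the 10 steps, 87.5 per Mb, and shared the highest density of input peaks, 650.0 per Mb. From 800 to 900 kb, unfiltered ChIP peaks stood at 267.5 and input peaks at 435.0 per Mb. Other steps went together. From 200 to 300 kb unfiltered ChIP peaks had their highest density, 277.5 per Mb, and input peaks again stood at 650.0. From 900 to 1000 kb both were low, at 92.5 and 307.5. The intervals of the 3 ChIP trends include the value of the input trend, 0.93. A difference between the trends is thus not shown, and it was not tested. Over the 40 distal steps, counts of 3% regions and of input peaks had a Pearson r of 0.33 and a Spearman rho of 0.39. Over 923 steps of the rest these were 0.25 and 0.28. For unfiltered ChIP and input peaks they were 0.28 and 0.30 in the distal steps and 0.29 and 0.33 in the rest. These are descriptions over steps that share libraries and mappable length. Of the 190 regions, 14 shared at least 1 bp with an input peak (7.37%, exact 95% interval 4.09 to 12.1%), with a background of 8.20%.

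The tip of X, the other large arm that ends at a telomere, had 36 regions at 3% in its first megabase, against 37.9 per Mb in the rest of X. Its input list had 184 peaks there against 148.1 per Mb. At 0.5% the tip of X had 29 regions against 27.1 per Mb, and in the unfiltered ChIP list it had 122 peaks against 153.6 per Mb. The difference between the tip and the rest of X was not tested for any list.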

How the data were processed

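Reads were aligned with Bowtie, per the submitters' processing notes. Each row of the deposited lists has 1 signal value from the peak caller of the authors, named pypeak in the titles of the lists. Settings, genome build, any subtraction of input and any pooling of strains: not given in the sources used here. Chromosomes are named as in release 5 and the only gene table was of release 6, so coordinates were not joined to genes. The signal of the filtered lists (400 bp regions) is called score and that of the unfiltered lists (270 bp peaks, never below 5) height. Which list is 0.5% or 3%, ChIP or input, was read from the authors' names. Columns of other samples: 0.

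Positions count from 1. Members were assigned by their centre, and overlap meant at least 1 bp. Arms were cut into 100 kb steps from the tip. Densities and trends were fitted by quasi-Poisson models with F tests, levels by linear models of log2 values with no pseudocount, and shares by binomial models, both with errors clustered by step. All 17 p-values were adjusted together. The regions named were, per arm, the 3 highest, the outermost, those beside the limit, the longest gap, and the fullest and empty steps. The members, lists and tests were chosen with earlier results of these data known. The fits were tested on simulated data. Alternatives covered step length, distal extent, the rest, error model, merged neighbours, ranks and each arm left out. Fits used statsmodels 0.14.6 with pandas 2.3.3, numpy 2.4.6 and scipy 1.17.1 in Python 3.11.15, and plots used matplotlib 3.10.9.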

Additional observations from a re-analysis of the deposited data

How the results depend on the processing

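Of 138 alternatives over 17 results, 120 kept direction and call, 8 lost the call, 1 gained it and 9 changed direction, all of them in results that had not passed or, once, in the input density. The cause was not tested. The input density ratio of 1.15 lost its call with 200 kb steps (1.15), a distal part of 2 Mb (1.06), the rest without its centromere-side 1 Mb (1.13), the negative binomial fit (1.15), neighbours within 1000 bp merged (1.06), and without 2L (1.15), 2R (1.14) or 3L (1.12). It was 0.94 for 0.4 to 1 Mb, an alternative chosen after seeing the data. The 0.5% density ratio gained its call without 3R (1.46). Trends that changed sides of 1 had not passed. They were, for unfiltered ChIP peaks, 1.01 with 200 kb steps, 1.01 without 2L, 1.00 without 3R and 1.03 without the last step (added after seeing the data), for the 3% list 1.01 without 2L and 1.02 without the last step, and for the 0.5% list 1.01 without the last step. The odds of a 3% region being listed at 0.5% changed to 0.94 without 2R. No paired analysis was possible because the lists hold no value per strain. The depth is unknown, and the number of rows limits the precision: the 190 regions at 3% leave an interval of 1.02 to 1.57 for their density ratio.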
